A study of Homo sapiens with 4 samples.

Results

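Of 7 genes that restrain, tune or relay p53 activity, MDM2 and TP53INP1 were higher after Nutlin-3 by more than 1.5-fold. CCNG1 was higher by a smaller step over all counts, with a counting interval that only just left out no difference. In the more deeply counted columns, and relative to MDM4, the interval of CCNG1 included no difference. The counting intervals of MDM4, PPM1D, USP7 and RCHY1 included no difference over all counts. The genes were chosen by symbol in a table of single-cell RNA counts, and all 7 were found among its 25693 human gene rows. The cells were NGP, an established human neuroblastoma line known to carry extra copies of MYCN and MDM2. Both groups had been synchronised by serum starvation. They were then held for 24 h in Nutlin-3 or in ethanol, the control. Each group had 2 libraries from the ddSeq device, with ERCC spike-in RNAs diluted 1000-fold in one and 10000-fold in the other. With ERCC totals as library sizes, TP53INP1 stayed past 1.5-fold higher, but MDM2 did not, at a log2 fold change of 0.25. CCNG1 was at -0.14 on that scale.

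MDM2 is a ubiquitin ligase that binds p53, masks its activation domain and marks it for destruction. Its gene is switched on by p53, which closes a negative feedback loop. Nutlin-3 occupies the pocket of MDM2 that holds p53, so p53 is released. MDM4 is a relative of MDM2 that also masks p53 and works with MDM2 as a pair. PPM1D is a phosphatase that removes activating phosphates from p53 and its kinases, and CCNG1 encodes cyclin G1, which brings the phosphatase PP2A to MDM2. TP53INP1 is a p53-induced protein that favours p53 signalling towards cell death. USP7 is a deubiquitinase that acts on MDM2 and p53, and RCHY1, also called PIRH2, is another ubiquitin ligase of p53.

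The promoter sequences of MDM2 are shown because the gene has an upstream and an internal promoter, and they differ in their match to the p53 response element. RefSeq windows spanned 300 bases (250 before and 50 after a transcript start, build GRCh38.p14). They were matched by symbol, and 15 windows of 6 of the 7 genes were used. TP53INP1 was left out of this scan, so its promoter was not examined. Each window was scanned for the consensus p53 response element, which is 2 adjacent half-sites over 20 bases, and mismatches were counted. The consensus is its own reverse complement, so 1 scan covers both strands. The lines below give the 250 bases before 2 MDM2 starts, 5′ to 3′ on the plus strand, with the closest match to the consensus in capitals.
MDM2 upstream promoter, chr12:68807922-68808171: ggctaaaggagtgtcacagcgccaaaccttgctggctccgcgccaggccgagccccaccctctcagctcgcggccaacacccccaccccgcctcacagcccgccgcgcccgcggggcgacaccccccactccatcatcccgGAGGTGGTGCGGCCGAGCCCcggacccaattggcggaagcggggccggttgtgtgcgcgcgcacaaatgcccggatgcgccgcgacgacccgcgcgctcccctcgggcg
MDM2 internal promoter, chr12:68808767-68809016: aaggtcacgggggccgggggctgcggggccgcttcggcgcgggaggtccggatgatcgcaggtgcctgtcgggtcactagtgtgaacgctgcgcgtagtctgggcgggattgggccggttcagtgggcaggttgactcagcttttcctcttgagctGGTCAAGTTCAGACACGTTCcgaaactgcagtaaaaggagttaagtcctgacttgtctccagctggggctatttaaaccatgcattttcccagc
The closest match in the internal promoter, at chr12:68808923-68808942, had 2 mismatches. A match with 2 or fewer was held by 0.649% of all 35116 windows. It lies in intron 1 of 7 of the 34 MDM2 transcripts in GENCODE 29, and outside the span of the other 27. The upstream promoter came no closer than 5 mismatches, which 70.5% of all windows reach.

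The windows of the other 5 genes came less close to the consensus. Their closest 20-base matches are printed to show this contrast, in capitals on the strand of the gene.
PPM1D, chr17:60599994-60600013, 4 mismatches: AAGCAAACTAGGAGATGCGC
USP7, chr16:8949838-8949857, 4 mismatches: GAGCTTCCCCAAGCTCAGCT
MDM4, chr1:204516186-204516205, 5 mismatches: TCACAAGACCCTGCAAGTCC
RCHY1, chr4:75514522-75514541, 5 mismatches: AGGCAACCTAAGAGTTATTA
CCNG1, chr5:163437409-163437428, 6 mismatches: GGGGAATTTGAGGCCAGATA
PPM1D, MDM4 and CCNG1 lie on the plus strand, and USP7 and RCHY1 on the minus strand. The USP7 match printed lies before a start inside the gene, at 8949654, and the window of another inner start, at 8936639, also had 4 mismatches. The USP7 window nearest the 5′ end of the gene had 5. RCHY1 had further matches with 5 mismatches in other windows. Matches with at most 4 mismatches occur in 26.0% of all windows, and with at most 6 in 97.4%. A distance from the consensus says only which letters these windows hold. Elements further from the start, and half-sites with bases between them, were not searched.

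The table held 250 columns per treatment, and column names did not tell the 2 libraries of a treatment apart. Each treatment is therefore 1 pool, no difference has a replicate check, and no test was run. Of the 250 column names per pool, 219 occurred in both pools. Human counts came to 1342134 in ethanol and 1301232 in Nutlin-3, and column totals ran from 253 to 13502. In each pool 113 columns held more than 4000 counts (large columns) and 137 held fewer (small columns). Of all nonzero values, 92.8% were equal to 1. Whether a column is 1 cell, and whether its values are limited by how molecular tags were read, could not be settled from the sources used here. Counts, shares and folds below are therefore those of columns. All 12 adrenergic neuroblastoma markers, such as DBH, had counts in both pools, with sums of 2649 CPM (counts scaled to 1000000 human counts) in ethanol and 2716 CPM in Nutlin-3. Of 13 markers of other cell types 6 were in the table, summing to 106 and 126 CPM, with PDGFRA at 88 and 87 counts the highest, and ALB at 0 in Nutlin-3.

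MDM2 (ENSG00000135679, GRCh38 chromosome 12, 68808176 to 68850686) gave 315 counts in the ethanol pool and 504 in the Nutlin-3 pool. Its level was 235 CPM in ethanol (95% counting interval 209 to 262) and 388 CPM in Nutlin-3 (354 to 423), so the intervals did not overlap. The log2 fold change was 0.72 (0.52 to 0.93), a fold of 1.65. Ranked by log2 fold change it took place 31 of the 8844 genes averaging 50 CPM or more. Their median was -0.01, and 95% of them fell from -0.37 to 0.37. Intervals here cover counting error only and take counts as independent molecules.

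The higher MDM2 count was spread over the columns and did not come from a few of them. In the large columns MDM2 was seen in 113 of 113 under both treatments, with 1, 2 and 8 counts as the lowest, median and highest in ethanol and 1, 3 and 15 in Nutlin-3. Columns with 3 or more MDM2 counts numbered 32 of 113 in ethanol and 75 of 113 in Nutlin-3. Columns with exactly 1 numbered 44 and 7. In the small columns, where few genes gave more than 1 count, MDM2 was seen in 85 of 137 columns in ethanol, a share of 62.0% with an exact binomial interval from 53.4 to 70.2. Under Nutlin-3 the number was 118 of 137, a share of 86.1% (79.2 to 91.4). The median depth of those columns was 868 and 828 human counts. For large columns the log2 fold change came to 0.77 (0.53 to 1.02), and for small columns to 0.66 (0.26 to 1.07). Both classes of columns thus gave a difference of like size, but values in the small columns varied little. Whether a limit on these values shaped the difference was not tested. Exactly 1 count was held by 82 of 137 small columns in ethanol and 109 of 137 in Nutlin-3, and the highest was 2. The variance over small columns was 0.429 and 0.216 of the mean, where the interval takes counts as independent.

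After each column was thinned to 700 counts, MDM2 was seen in 23.7% of 194 ethanol columns (17.9 to 30.3) and in 31.0% of 187 Nutlin-3 columns (24.5 to 38.2). These intervals overlapped. At 350 counts a column MDM2 was seen in 14.1% of 241 ethanol columns (9.97 to 19.15). Under Nutlin-3 it was seen in 24.7% of 231 columns (19.26 to 30.76). The intervals at 350 counts did not overlap, though they came close. The unthinned shares were 79.2% and 92.4% of 250 columns. The culture held no cell type that should lack these genes, so what free RNA contributes to such shares is unknown. The number of shallower columns left out was 56 in ethanol and 63 in Nutlin-3 at 700 counts, and 9 and 19 at 350.

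MDM4 (ENSG00000198625, chromosome 1, 204516379 to 204558120) gave 187 counts under ethanol and 182 under Nutlin-3. Its level was 139 CPM (120 to 161) and 140 CPM (120 to 162), nearly the same in both pools. The log2 fold change was 0.01 (-0.30 to 0.31). It was -0.0005 for large columns (-0.35 to 0.35) and 0.10 for small columns (-0.55 to 0.75). MDM4 was seen in 42 of 137 small columns under either treatment, and 86 of 113 large ethanol columns and 89 of 113 large Nutlin-3 columns held exactly 1 count of it.

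The balance of the MDM2 and MDM4 transcripts needs no scaling, since both come from the same pools. MDM4 held exactly 1 count in 86 of 113 large ethanol columns and 89 of 113 large Nutlin-3 columns. Whether this kept MDM4 from changing was not tested. With 187 and 182 counts of MDM4, the ratio largely follows the MDM2 count. The count of MDM2 per count of MDM4 went from 1.68 in ethanol to 2.77 in Nutlin-3, a log2 change of 0.72 (0.35 to 1.09). Large columns gave 0.77 (0.35 to 1.20). Small ones gave 0.56 (-0.21 to 1.34), an interval that included 0. For TP53INP1 against MDM4 the log2 change was 1.62 (1.01 to 2.25). The intervals of PPM1D, CCNG1, USP7 and RCHY1 against MDM4 all included 0, CCNG1 having the widest distance from it at 0.33 (-0.10 to 0.76).

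**Figure D1:**
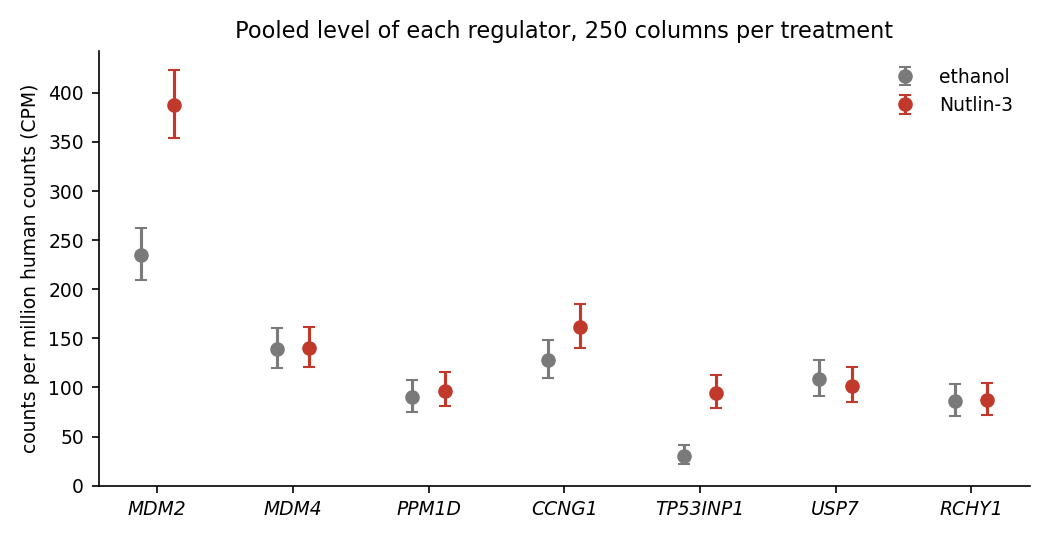
Level of each of the 7 regulators in CPM, by treatment; points are the pooled values of 250 columns and bars are 95% Poisson counting intervals. MDM2 and TP53INP1 have separate intervals in the 2 pools, at 235 and 388 CPM and at 30.5 and 94.6 CPM, and the intervals of the other 5 genes overlap.

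TP53INP1 (ENSG00000164938, chromosome 8, 94925972 to 94949411) differed most of the 7 genes, with 41 counts in ethanol and 123 in Nutlin-3. Its level was 30.5 CPM (21.9 to 41.4) and 94.6 CPM (78.6 to 113). The log2 fold change was 1.62 (1.11 to 2.18), place 3 of the 8844 genes of 50 CPM or more. It belongs to that set through its Nutlin-3 level alone, so the difference itself helped its place. In ethanol it was seen in 41 of 113 large columns and in 0 of 137 small columns, which allows a share of up to 2.19% by a limit of 3 counts and up to 2.66% by the exact binomial interval. In Nutlin-3 it was seen in 108 of 113 large columns and in 13 of 137 small ones. No ethanol column held more than 1 count. In the large columns the log2 fold change was 1.45 (0.93 to 2.02), and in the small columns TP53INP1 was at least 4.76-fold higher, with the ethanol sum set at 3 counts over the pool. That bound leaves out the counting error of the 13 Nutlin-3 counts, and the counting interval of the fold began at 3.35. At 700 counts a column it was seen in 1.55% of ethanol columns (0.32 to 4.45) and 3.74% of Nutlin-3 columns (1.52 to 7.56), so the difference was not detectable at that depth.

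CCNG1 (ENSG00000113328, chromosome 5, 163437569 to 163446151) gave 172 counts under ethanol and 210 under Nutlin-3. The levels were 128 CPM (110 to 149) and 161 CPM (140 to 185), with overlapping intervals. The log2 fold change of 0.33 (0.04 to 0.63) placed it at 301 of the 8844 genes, within the range that holds 95% of them. The size differed by column class. Large columns gave a log2 fold change of 0.19 (-0.15 to 0.53), from 139 and 154 counts, and small columns one of 0.89 (0.25 to 1.57), from 33 and 56 counts. CCNG1 was seen in 24.1% of small ethanol columns (17.2 to 32.1) and 38.0% of small Nutlin-3 columns (29.8 to 46.6). The large columns of both treatments all held it, with 90 of 113 in ethanol and 77 of 113 in Nutlin-3 at exactly 1 count. The part of depth and of the many values of 1 in this gap between classes was not tested.

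PPM1D (ENSG00000170836, chromosome 17, 60600183 to 60666280), though known as a p53 target, gave 121 counts under ethanol and 126 under Nutlin-3. Its log2 fold change was 0.10 (-0.27 to 0.48). In the large columns 104 of 113 in ethanol and 105 of 113 in Nutlin-3 held exactly 1 PPM1D count, and the variance over columns was 0.082 and 0.070 of the mean. Whether values so close to 1 in nearly every column kept a difference from showing was not tested. In the small columns it was seen in 13 and 11 of 137 columns.

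USP7 (ENSG00000187555, chromosome 16, 8892094 to 8964514) was the only one of the 7 with a value below 0 over all columns together. It gave 146 counts under ethanol and 132 under Nutlin-3, a log2 fold change of -0.10 (-0.45 to 0.25). Exactly 1 count was held by 99 of 113 large columns in ethanol and 107 of 113 in Nutlin-3. In the small columns the counts were 21 and 15, and the log2 fold change was -0.34 (-1.41 to 0.68).

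RCHY1 (ENSG00000163743, chromosome 4, 75479037 to 75514764) gave 116 counts under ethanol and 113 under Nutlin-3, a log2 fold change of 0.01 (-0.38 to 0.39). It was seen in 97 and 98 of 113 large columns and in 14 and 10 of 137 small ones. Exactly 1 count was held by 92 of 113 large ethanol columns and 93 of 113 large Nutlin-3 columns. For MDM4, PPM1D, USP7 and RCHY1 the variance over large columns was far below the mean, so the intervals, which take counts as independent, set no limit on the fold. The same held for CCNG1, at 0.203 of the mean in ethanol and 0.263 in Nutlin-3. TP53INP1 was at 0.643 in ethanol and 0.063 in Nutlin-3, where 106 of 113 large columns held exactly 1 count. MDM2 was at 0.609 and 0.935. The intervals of these 3 genes rest on the same assumption.

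**Figure D2:**
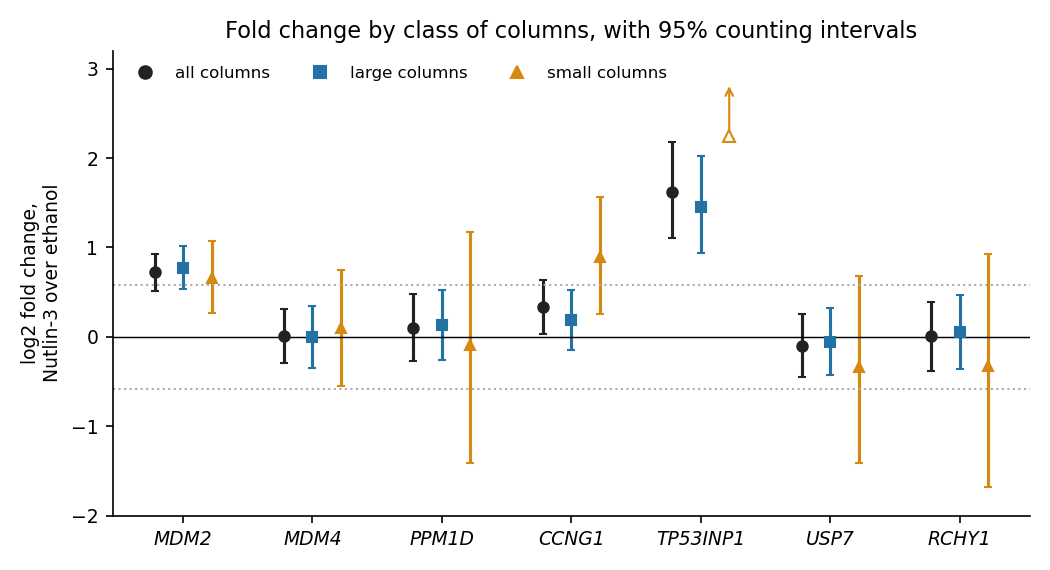
Nutlin-3 over ethanol as a log2 fold change for the 7 regulators in all columns, in the 113 large and in the 137 small columns per treatment; bars are 95% counting intervals, dotted lines mark 1.5-fold, and the open triangle with an arrow is the lower bound for TP53INP1. MDM2 lies near 0.7 in both classes, CCNG1 is at 0.19 in large and 0.89 in small columns, and MDM4 lies between -0.0005 and 0.10.

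Of the 7 members, which all passed the filter on low counts, MDM2 and TP53INP1 were past 1.5-fold higher and 0 were past 1.5-fold lower. Among all 14830 genes that passed, 7.81% were past 1.5-fold higher and 5.85% lower. Among genes of at least 50 CPM, where all 7 members lie, TP53INP1 through its Nutlin-3 level alone, the shares were 0.622% and 0.384%. The median log2 fold change of the 7 was 0.10, against -0.001 over all genes that passed. In the large columns the same 2 members were past that fold, where 7.58% of 14759 genes were, and 5.73% were past it lower. In the small columns 6 members passed the filter, and MDM2 and CCNG1 were past 1.5-fold higher beside 15.2% of 4762 genes, with 14.7% past it lower. Scaled to ERCC counts, the median of all genes above 50 CPM moved to -0.48. On that scale TP53INP1 was at 1.15 and MDM2 at 0.25, while CCNG1 (-0.14), PPM1D (-0.36), MDM4 (-0.46), RCHY1 (-0.46) and USP7 (-0.57) were below 0.

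**Figure D3:**
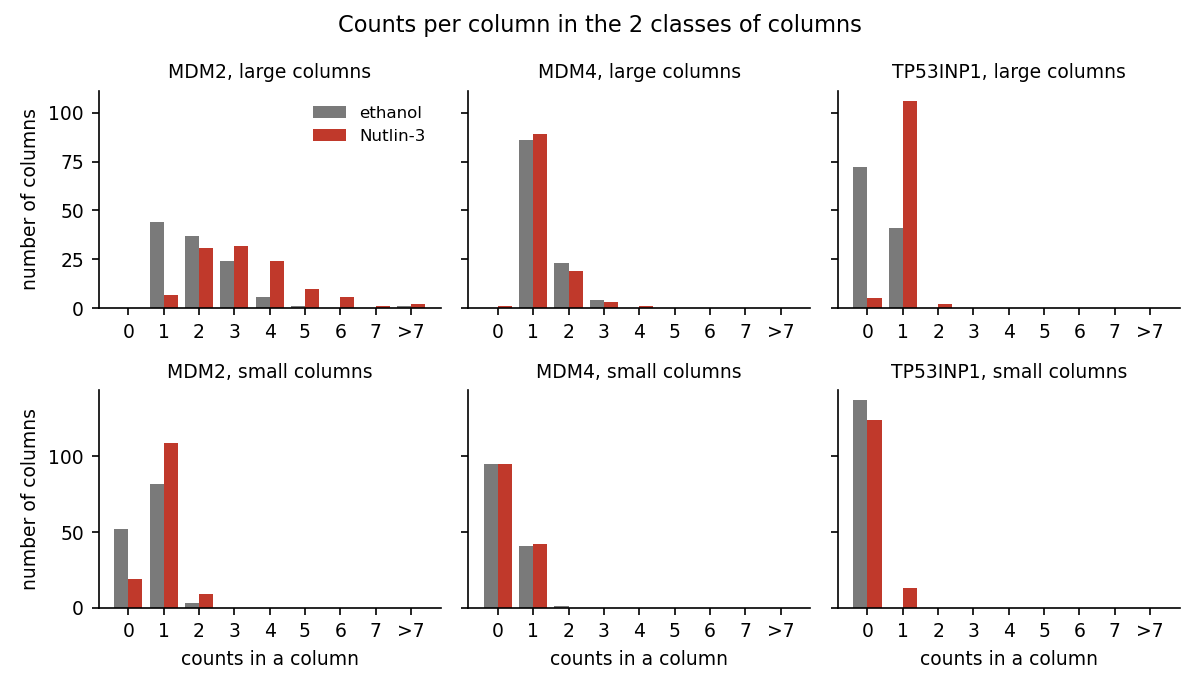
Number of columns by their count of MDM2, MDM4 and TP53INP1, in the large columns (top, 113 per treatment) and the small columns (bottom, 137 per treatment); grey bars are ethanol and red bars Nutlin-3. MDM2 shifts from a median of 2 to 3 counts in large columns, MDM4 has its peak at 1 under both treatments, and TP53INP1 goes from 41 to 108 large columns with a count.

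Overlapping genes were annotated for 6 of the members, and no source used here says whether counting used strand. The partners of MDM4 (AL512306.1) and PPM1D (RNU6-623P) had no row among the counts. The same was true of AC025423.2, a pseudogene that overlaps MDM2 on its own strand over 439 bases. On the strand of MDM2 itself AC025423.1 overlaps it over 436 bases, with 5 and 8 counts. The 3′ end of MDM2 overlaps the gene CPM (carboxypeptidase M) on the other strand over 8490 bases, and CPM had 146 and 141 counts, a log2 fold change of -0.004 (-0.35 to 0.34). An antisense RNA within MDM2, AC025423.4, gave 142 counts under ethanol and 179 under Nutlin-3, a log2 fold change of 0.38 (0.05 to 0.71). TP53INP1 lies within the span of NDUFAF6 on the other strand, whose log2 fold change was 0.10 (-0.23 to 0.44). RCHY1 overlaps THAP6 over 819 bases, with 43 and 54 counts, and USP7 overlaps AC022167.3, with 2 and 4 counts. How much of the members' counts came from these partners was not tested.

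The neighbours of MDM2 on chromosome 12 did not share its difference, apart from LYZ. Of the 5 nearest protein-coding genes on each side, 9 were in the table, and their median log2 fold change was -0.11. SLC35E3, the nearest on the left, was at -0.17 (-0.42 to 0.08), NUP107 at -0.23 (-0.46 to 0.01) and RAP1B at -0.21 (-0.54 to 0.11). On the right CPSF6 and FRS2 were both at 0.08, and YEATS4 was at -0.11. LYZ, the lysozyme gene, was at 1.06 (0.34 to 1.84) from 24 and 49 counts, and MDM1 was lowest at -0.52 (-1.11 to 0.04).

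**Figure D4:**
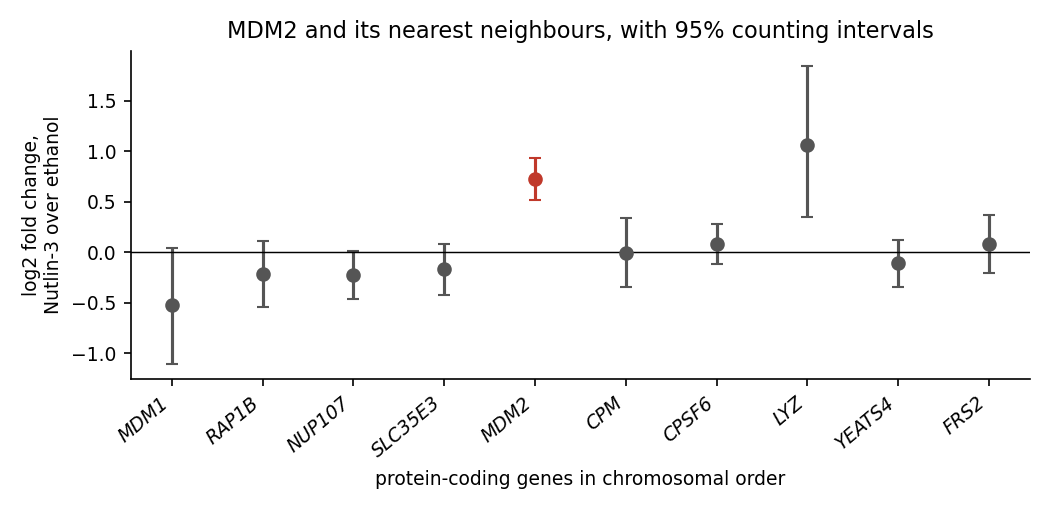
Nutlin-3 over ethanol as a log2 fold change for MDM2 (red) and the 9 measured neighbours (grey) in chromosomal order; bars are 95% counting intervals. MDM2 is at 0.72 while 8 of the neighbours lie between -0.52 and 0.08, and LYZ at 1.06 has a wide interval.

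Other genes of the circuit were described by lists. Over all 14830 genes that passed the filter 7377 were higher and 7453 lower in Nutlin-3, with a median log2 fold change of -0.001, and 7.81% were past 1.5-fold higher and 5.85% lower. Among genes of at least 50 CPM, where most of the list genes lie, the shares were 0.622% and 0.384%. Of 12 E3 ligases and partners acting on p53, all passed the filter, 0 were past 1.5-fold and the median log2 fold change was 0.03. TRIM24, a ligase of p53 with the highest CPM of them, had 143 and 142 counts. Of 7 deubiquitinases of p53, MDM2 or MDM4 the median was -0.01. USP2, a deubiquitinase of MDM2, was alone past 1.5-fold, with 40 counts in ethanol and 20 in Nutlin-3 and a log2 fold change of -0.94 (-1.81 to -0.15), while USP10, which acts on p53, was at -0.02 (-0.38 to 0.34).

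The 9 proteins that bind and restrain MDM2 had a median of 0.12, and 0 were past 1.5-fold. The 4 ribosomal proteins among them, named after their values were seen, were each higher in Nutlin-3. RPL23 was at 0.39 (0.20 to 0.59) and RPS7 at 0.31 (0.11 to 0.52). RPL5 was at 0.25 (0.04 to 0.45) and RPL11 at 0.20 (0.04 to 0.36). All but RPL23 lay within the central range of genes of at least 50 CPM, from -0.37 to 0.37. They were not compared with other ribosomal protein genes. On the ERCC scale the median of the 9 was -0.35. CDKN2A, whose product ARF binds MDM2, was at -0.04 (-0.36 to 0.29). The 10 kinases had a median of -0.05. CHEK1, the checkpoint kinase of DNA replication, gave 111 counts under ethanol and 62 under Nutlin-3, a log2 fold change of -0.79 (-1.27 to -0.33). It was past 1.5-fold lower, and PRKDC was at -0.04 (-0.34 to 0.25).

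Of 10 enzymes that acetylate, deacetylate or methylate p53 the median was -0.09, and KAT2B was past 1.5-fold higher with 15 and 23 counts, with an interval from -0.34 to 1.71 that included no difference. HDAC1, a deacetylase with the highest CPM of them, was at 0.04 (-0.32 to 0.39). The 11 paralogues and partners had a median of 0.06 and 0 past 1.5-fold. CCNG2, the paralogue of CCNG1, was at 0.12 (-0.24 to 0.49), and TP53INP2, that of TP53INP1, at 0.32 (-0.12 to 0.76). CCNI, another relative of CCNG1 with the highest CPM of the list, was at 0.10 (-0.11 to 0.32). On the ERCC scale the medians of the lists described so far lay between -0.56 and -0.35.

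Among 30 other p53 target genes, 30 were higher in Nutlin-3 and 18 past 1.5-fold, with a median log2 fold change of 0.94. A gene passes the filter on low counts if either pool alone has enough. TRIM22 (0 and 15 counts), FAS (3 and 33) and GDF15 (5 and 29) passed through their Nutlin-3 counts, and SPATA18 (10 and 35) lay close to the cutoff in ethanol. All of these are among the 18 and in the median, so the difference itself helped to bring them in. Among all genes 7377 of 14830 were higher, and 7.81% were past 1.5-fold higher. This list was drawn up with earlier results of these data known, so its direction is no independent evidence. CDKN1A, which encodes p21, an inhibitor of cyclin-dependent kinases, was at 1.46 (1.07 to 1.89). RPS27L, a ribosomal protein-like gene with the highest CPM of the list, had 155 and 241 counts, a log2 fold change of 0.68 (0.39 to 0.98). MDM2 had a lower log2 fold change than 16 of the 30 and a higher one than 14. TP53INP1 had a higher one than 22. PPM1D was above 2 of them and CCNG1 above 8, and MDM4, USP7 and RCHY1 were below all 30.

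**Figure D5:**
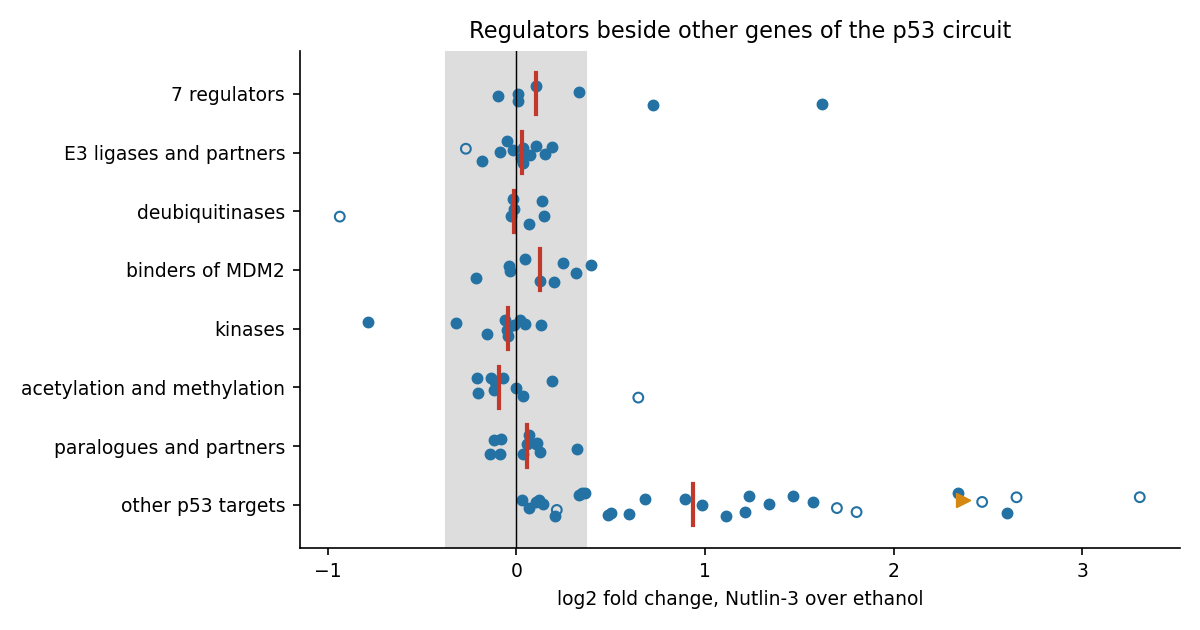
Nutlin-3 over ethanol as a log2 fold change for the 7 regulators and 7 other lists of the p53 circuit; filled points are genes of at least 50 CPM, open points are less abundant genes, the orange triangle is the lower bound of TRIM22, red bars are list medians and the grey band is the central 95% of genes of at least 50 CPM. The list of other p53 targets has its median at 0.94, and the other medians lie between -0.09 and 0.12.

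The genes most like MDM2 were sought over 4 pools, the large and small columns of each treatment, by the distance between centred log2 levels among the 8844 genes of at least 50 CPM. The nearest were LRRC75A-AS1 (0.21), CHGA (0.25), ACTG1 (0.29), MT-ND3 (0.29) and NOP53 (0.33). Of these CHGA, the gene of the granule protein chromogranin A, had 411 and 559 counts, a log2 fold change of 0.49. All 5 had smaller differences than MDM2. The nearest to CCNG1 were RPL3P4 (0.10), SNHG5 (0.13), COMMD6 (0.14), METTL7A (0.21) and LRRN3 (0.21). RPL3P4 is a pseudogene of a ribosomal protein, so its counts are uncertain. With 4 points this likeness is a description only.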

How the data were processed

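RNA of NGP cells was counted after 24 h in Nutlin-3 or ethanol, with libraries from the ddSeq device and the SureCell 3′ kit, per the labels' protocols. The authors deposited whole-number counts per gene and column; aligner, barcode and molecular tag handling, build, annotation, cell filter and doublet removal: not given in the sources used here. No doublet caller was run. A 3′ count does not tell transcript isoforms or promoters apart, and genes were ordered by CPM with no length correction. Columns ending in treated were taken as Nutlin-3 and those ending in untreated as ethanol, and 0 were left out.

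Counts were summed per treatment without ERCC rows and scaled by TMM (edgeR 4.0.16, R 4.3.3) after a filter on low counts (minimum 10). The log2 fold change used 0.5 added counts; its interval is the exact binomial (Clopper-Pearson) interval of the Nutlin-3 share, sums have Poisson intervals, and ratios to MDM4 have the conditional odds ratio interval (scipy 1.17.1). With 1 pool per treatment no test was run, and called means past 1.5-fold. Columns were split at 4000 counts, and thinned to 700 or 350. The fold change and its interval were tested on simulated independent counts, a setting that the low variance over columns here departs from. Scaling, thinning and the ratios to MDM4 were not tested in this way. Names and positions came from GENCODE 29 on GRCh38, which need not be the authors' build. Named genes were the members, list genes past 1.5-fold averaging 20 CPM or more, the gene of each list with the highest CPM, 5 neighbours on each side of MDM2, CDKN1A, and the 5 genes nearest to MDM2 and CCNG1 in log2(CPM + 5). The other list genes given (ribosomal proteins, CDKN2A, KAT2B, CCNG2, TP53INP2, TRIM22, FAS, GDF15, SPATA18) were chosen after their values were seen. The remaining p53 targets past 1.5-fold are given by counts. Members, lists and the split of columns were chosen with earlier results of these data known.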

Additional observations from a re-analysis of the deposited data

How the results depend on the processing

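No paired analysis was possible because column names carry no library or dilution, and leaving out a library was not possible for the same reason. Fold changes of the 7 members were recomputed under 9 alternatives, 63 values in all, of which 54 stayed within the counting interval of the first value. The other 9 were as follows. ERCC totals as library sizes gave 0.25 for MDM2, -0.46 for MDM4, -0.36 for PPM1D, -0.14 for CCNG1, -0.57 for USP7 and -0.46 for RCHY1, since this scaling moves every gene by 1 constant, and left 1 member past 1.5-fold higher in place of 2. The 2 dilutions are mixed in unknown proportion in each pool, so a different mixture and a different amount of RNA cannot be told apart. Small columns alone gave 0.89 for CCNG1 and a bound of 2.25 for TP53INP1. Counting columns in place of summing counts gave 0.22 for MDM2, where all large columns held the gene under both treatments. DESeq2 size factors, library totals, 2 added counts, removal of shallow columns and use of names found in both pools moved no member out of its interval. Of 56 shares of columns 29 moved, and of 28 list medians 8 moved; the cause was not tested.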

Other observations

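The level of MDM2 on the CPM scale differed between classes of columns within each treatment. Large and small columns gave 190 and 575 CPM under ethanol, and 325 and 911 CPM under Nutlin-3. MDM4 went the same way, at 121 and 281 CPM in ethanol and 121 and 301 CPM in Nutlin-3, and so did CCNG1, at 117 and 215 CPM in ethanol. PPM1D (90.6 and 84.9 CPM in ethanol) and RCHY1 (85.6 and 91.4 CPM) differed less between the classes, and USP7 was at 105 and 137 CPM. TP53INP1 went the other way in ethanol, at 34.4 CPM in large columns and 0 in small ones, where the counting interval reached 24.1 CPM. In the large ethanol columns the variance of MDM4 over columns was 0.214 of its mean, and that of RCHY1 0.197, where independent counts would give a value near the mean itself. MDM2 had ratios of 0.609 under ethanol and 0.935 under Nutlin-3.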
